A study of Arabidopsis thaliana with 12 samples.

Results

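The genes described here are the heat response and chaperone genes of Arabidopsis thaliana roots that the authors called changed in at least 1 transgenic line. They are the 31 genes, of 2424 in the 3 deposited tables, whose annotation carries the Gene Ontology term for response to heat. Transcription factors of the MYB, AP2-EREBP, bHLH, NAC and WRKY families were left out, as were the loci AT5G15960 and AT5G15970. Together these exclusions removed 5 of 36 genes. Of the 31, 17 were listed for LBD29-OE, 8 for MYB2-OE and 19 for MYB2-SRDX. The counts by table were 20 genes in 1 table, 9 in 2 and 2 in all 3. Of the 31, 22 are in fixed lists of heat shock factors, chaperones, co-chaperones and other heat-induced genes. The other 9 are an HSP20-like gene, a heat-induced TAS1 target, enzymes, a receptor kinase, zinc finger and B-box proteins and chloroplast proteins that share the term.

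RNA sequencing was done on roots of 8-day-old seedlings grown in darkness on 1/2 MS medium, with 3 libraries for each of 4 genotypes and 12 libraries in all. LBD29-OE carries an LBD29 transgene, MYB2-OE a MYB2 transgene and MYB2-SRDX a fusion of MYB2 to the SRDX repression domain, labelled as dominant negative. The study's design text gives the viral 35S promoter for all 3 transgenes, which is active in most cell types, and a 6Gly tag in the name of the LBD29 construct. The control, Col, is the wild type that each line was compared with, and the same 3 Col libraries stand in all 3 tables. How many independent insertion lines or seedling pools stand behind a genotype is not given in the sources used here. A p-value therefore measures only the spread between these libraries, which may be technical.

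Heat makes proteins unfold. Cells answer through heat shock factors, which bind heat shock elements, arrays of alternating GAA and TTC units upstream of chaperone genes. Small heat shock proteins (the HSP20 family) hold unfolded proteins, HSP70 with its J-domain partners refolds them, HSP101 pulls aggregates apart, and co-chaperones such as HOP link HSP70 to HSP90. In plants the same genes also answer to oxidative stress and strong light.

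LBD29 lay between 477 and 603 FPKM in LBD29-OE, against 2.55 to 3.08 FPKM in Col. MYB2 lay between 375 and 636 FPKM in MYB2-OE and between 445 and 538 FPKM in MYB2-SRDX, against 0.480 to 1.01 FPKM in Col. FPKM are fragments per kilobase of transcript scaled to library size, so they allow for gene length. The sequencing depth of each library is unknown. A library of each line stood apart. LBD29-OE replicate 2 had a summed level of 259 FPKM over the 7 listed green tissue markers, where LBD29-OE replicates 1 and 3 had 11.6 and 14.0 FPKM, against 102 to 132 FPKM in Col. Of these 7 markers 5 were called higher and 2, RBCS1A and PORB, lower in LBD29-OE, so the sum mixes directions. In bulk RNA, fewer cells of a type and less RNA per cell cannot be told apart. MYB2-OE replicate 2 held LBD29 at 109 FPKM, while the lowest MYB2-OE library had 1.82 FPKM. Of 10 seed storage markers, 4 were listed, all for MYB2-SRDX. CRA1, OLEO1 and OLEO2 measured 2.04, 0.850 and 1.09 FPKM in the MYB2-SRDX library named with a final 1 and 0 in the libraries ending in 2 and 3, against at most 0.05 FPKM in Col. OLEO4 measured 0.920, 1.68 and 1.85 FPKM in MYB2-SRDX, against 0.270, 0.650 and 0.490 FPKM in Col, so it was above Col in every library and lowest in the library ending in 1. None of 9 root marker genes was listed in any table, so the tissue label could not be checked on them.

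The sequences upstream of the members were read first for the element that gives this group its name, in the 250 bases before the annotated gene start (RefSeq annotation of TAIR10.1, all 31 genes matched). HSP17.4 and HSFA2 were the 2 members with a run of 3 alternating units, GAA, TTC and GAA or TTC, GAA and TTC, each 2 bases from the next, on either strand. That run stood upstream of 0.386% of 27443 protein-coding genes. The HSP17.4 stretch, chr3:16984868-16985117 on the minus strand, is shown whole because it holds the run at 2 places, from base -99 to -87 and from base -18 to -6. The HSFA2 run lies at chr2:11135528-11135557, plus strand, and is shown with 3 members that have a shorter element of 2 units near the start, HSA32 (chr4:11340332-11340361, plus strand), HSP17.6A (chr5:3884842-3884871, minus strand) and ATERDJ3A (chr3:2737258-2737287, plus strand). Sequences run 5′ to 3′ and capitals mark the alternating units with the bases between them.
HSP17.4: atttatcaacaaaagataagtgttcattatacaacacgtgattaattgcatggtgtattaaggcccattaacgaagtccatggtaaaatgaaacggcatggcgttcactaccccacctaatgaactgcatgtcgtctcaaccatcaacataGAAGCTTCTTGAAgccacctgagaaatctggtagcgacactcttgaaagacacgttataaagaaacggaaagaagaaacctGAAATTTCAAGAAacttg
HSFA2: ttagtaacGAAGTTTCTGGAAcattgtctt
HSA32: agagtaacaaaTTCGAGAAcatgacgtggc
HSP17.6A: gatcaagacgtTTCTCGAAcgttagagaag
ATERDJ3A: cggaatttattTTCAGGAAatacgaaacaa

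Elements of 2 units, GAANNTTC or TTCNNGAA, each of which reads the same on both strands and which overlap inside a run of 3, stood upstream of 9 of the 31 members (29.0%), against 16.1% of the 27443 genes. The members with one were HSFA2, HSP17.4, RHL41, ATERDJ3A, HSA32, HSP17.6A and the loci AT1G51670, AT1G52560 and AT5G37670. TAACTG, a core of MYB binding sites searched on both strands, was found upstream of 0 members and of 8.12% of the 27443 genes. These are matches of letters in a fixed window from an annotated start, and in 13 members the window overlaps another protein-coding gene.

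**Figure D1:**
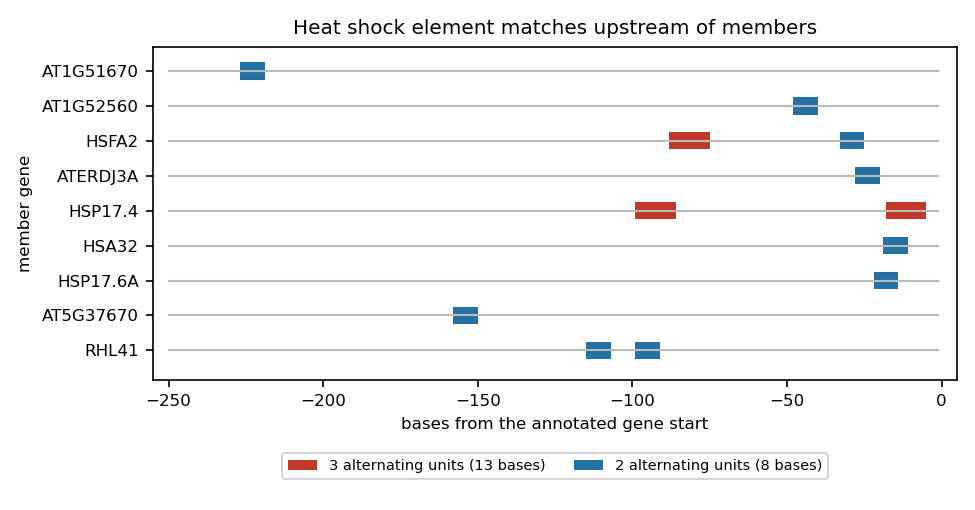
Position of heat shock element matches in the 250 bases upstream of the 9 members that have any, in bases from the annotated gene start. Wide red bars are runs of 3 alternating units (13 bases) and narrow blue bars are elements of 2 units (8 bases); HSP17.4 has a wide bar at 2 places and HSFA2 at 1.

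In LBD29-OE most of the listed members were higher than in Col, from the heat shock factor HSFA2 through HSP70 and HSP101 chaperones to 6 HSP20-like genes. The authors called 15 members higher (48.4% of the 31, where 13.8% of the 2424 genes were called higher in this line) and 2 lower (6.45%, against 19.3%). Every member had to be called in some line to be listed, so these shares are a description. The direction was not part of the rule, but the members were chosen with earlier results of these data known. Of the 17 listed members 15 were higher (88.2%), against 41.8% of the 802 genes in the LBD29-OE table. The median log2 fold change in the authors' deposited table was 1.36 for the members and -1.09 for all genes of that table. The libraries of line and Col did not overlap for 16 of the 17 members, where 85.2% of the genes of that table did not overlap.

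HSFA2, a heat shock factor that keeps the heat response going, measured 2.72, 3.0 and 2.34 FPKM in LBD29-OE, against 0.600, 0.780 and 0.310 FPKM in Col. All 3 libraries of the line lay above all Col libraries. This was the largest log2 fold change among the members of this line, 2.27 in the authors' deposited table. MBF1C, a transcriptional coactivator of thermotolerance, measured 46.7, 51.7 and 34.7 FPKM in LBD29-OE, against 14.7, 9.47 and 7.06 FPKM in Col. Its lowest LBD29-OE library was more than 2 times its highest Col library.

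The HSP100 disaggregase gene HSP101 measured 12.5, 15.5 and 11.4 FPKM in LBD29-OE, against 6.24, 4.32 and 3.38 FPKM in Col. HSP70, a heat-inducible cytosolic chaperone, measured 250, 291 and 266 FPKM in LBD29-OE, against 144, 79.0 and 53.6 FPKM in Col. The 3 LBD29-OE libraries of HSP70 lay close together, while Col replicate 1 was far above Col replicate 3. The HSP70 family gene AT3G09440 was already high in Col and measured 221, 199 and 226 FPKM in LBD29-OE, against 133, 103 and 80.9 FPKM in Col. Hsp70-2 measured 32.6, 27.0 and 37.2 FPKM in LBD29-OE, against 18.4, 14.7 and 10.2 FPKM in Col. Neither gene had overlapping groups. These HSP70 genes are close in sequence to each other and to HSC70-1, and how the authors treated reads that fit several of them is not given in the sources used here, so their separate values are uncertain.

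Among co-chaperones, ATERDJ3A, a J-domain protein that stimulates HSP70 proteins of the endoplasmic reticulum, measured 5.19, 5.07 and 3.94 FPKM in LBD29-OE, against 1.72, 1.40 and 1.26 FPKM in Col. Hop3, which bridges HSP70 and HSP90, measured 31.3, 37.2 and 25.9 FPKM in LBD29-OE, against 18.15, 15.5 and 12.4 FPKM in Col. AT5G48570, also named ROF2, encodes an FKBP-type isomerase that acts with HSP90. It measured 48.9, 55.0 and 36.8 FPKM in LBD29-OE, against 27.6, 19.1 and 15.9 FPKM in Col. In each of these 3 co-chaperone genes the groups were apart.

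Of the small heat shock protein genes, AT1G59860 measured 5.11, 5.43 and 4.85 FPKM in LBD29-OE, against 1.81, 1.53 and 0.840 FPKM in Col. AT1G07400 measured 10.0, 12.6 and 10.2 FPKM in LBD29-OE, against 5.44, 2.97 and 2.07 FPKM in Col. AT1G54050 measured 7.17, 7.12 and 7.05 FPKM in LBD29-OE, against 3.51, 2.99 and 1.84 FPKM in Col. In all 3 the line stood above Col without overlap. HSP18.2 measured 11.4, 12.5 and 15.1 FPKM in LBD29-OE, against 7.46, 8.16 and 3.71 FPKM in Col. AT2G19310 averaged 27.7 ± 4.10 FPKM in LBD29-OE, against 12.2 ± 2.75 FPKM in Col (SD, n = 3 each). The peroxisomal small heat shock gene AT5G37670 was low, at 1.84, 2.02 and 2.24 FPKM in LBD29-OE, against 0.640, 0.980 and 0.750 FPKM in Col. None of these 3 genes had overlapping groups.

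The 2 members called lower in LBD29-OE are also small heat shock genes. AT4G21870 measured 1.57, 1.52 and 0.920 FPKM in LBD29-OE, against 4.07, 4.02 and 4.25 FPKM in Col, with no overlap. ATHSP22.0, whose product resides in the endoplasmic reticulum, measured 0.05, 0.05 and 0.410 FPKM in LBD29-OE, against 1.30, 0.550 and 0.140 FPKM in Col. Its groups overlapped, and both means were under 1 FPKM.

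limma on log2(FPKM + 1), fitted on the whole LBD29-OE table with Benjamini-Hochberg adjustment, passed 15 of the higher members and AT4G21870 at an adjusted p under 0.05, where 83.4% of the genes of that table passed. MBF1C rose by 2.03 ± 0.278 on that scale (log2 ± SE, adjusted p = 0.00133, limma), HSFA2 by 1.25 ± 0.165 (adjusted p = 0.00118, limma) and HSP70 by 1.65 ± 0.338 (adjusted p = 0.00530, limma). ATHSP22.0 did not pass (adjusted p = 0.142, limma). All genes of each table had been called by the authors on the same libraries before limma was fitted. The adjusted p-values therefore describe the spread between libraries and do not control errors over all genes. This limit holds for limma on all 3 tables. For the leave-out folds 0.1 FPKM was added to each mean, which with all libraries kept all 17 members past 2-fold. LBD29-OE replicate 2 was the library with the highest green tissue sum. Without LBD29-OE replicate 2, 14 of the 15 higher members kept a log2 of at least 1, and Hop3 stood at 0.89. Without Col replicate 3, the lowest Col library for 13 of the 15, 11 kept it, and AT3G09440, Hop3, Hsp70-2 and HSP18.2 stood at 0.86, 0.90, 0.96 and 0.73. Without LBD29-OE replicate 3, HSP18.2 (0.88) and AT3G09440 (0.99) were under it and HSP18.2 no longer passed limma. Without Col replicate 1, ATHSP22.0 stood at -0.72.

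**Figure D2:**
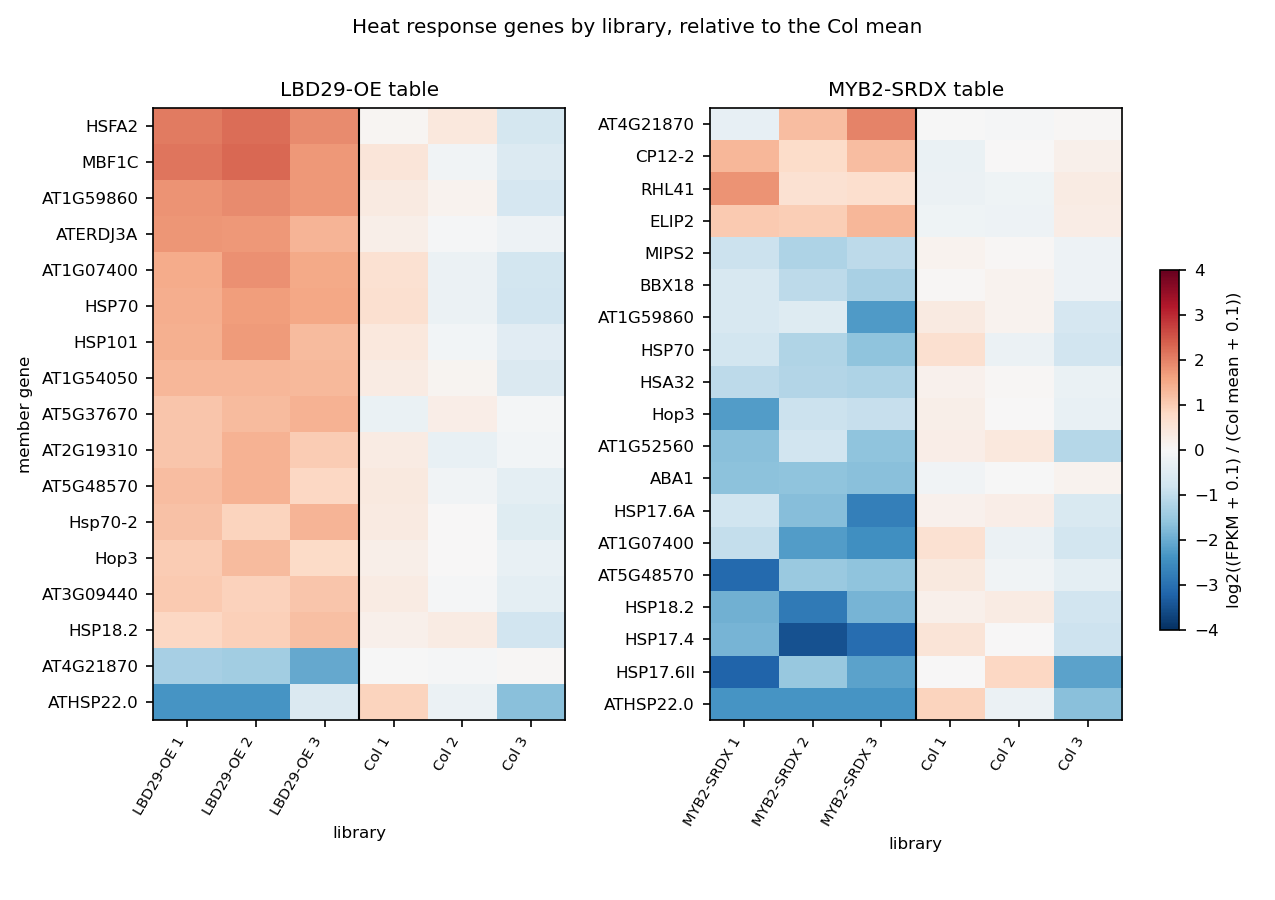
FPKM of each library relative to the Col mean, as log2 with 0.1 added to both, for the 17 members in the LBD29-OE table (left) and the 19 in the MYB2-SRDX table (right), with the 3 libraries of the line to the left of the 3 Col libraries in each panel. The 15 upper rows on the left are above the Col mean in all LBD29-OE libraries, and the lower 15 rows on the right are below it in all MYB2-SRDX libraries.

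In MYB2-SRDX 15 of the 19 listed heat genes were called lower than in Col. ATHSP22.0 (-3.84) and HSP17.6II (-2.90) had the lowest log2 fold changes in the authors' deposited table, both at means under 1 FPKM. Among members with at least 5 FPKM in the higher group, the lowest were the small heat shock genes HSP17.4 (-2.69) and HSP18.2 (-2.21) and the co-chaperone gene AT5G48570 (-1.92). The authors called 15 members lower (48.4% of the 31, where 20.3% of the 2424 genes were called lower in this line) and 4 higher (12.9%, against 22.8%). Of the 19 listed members 78.9% were lower, against 47.1% of the 1045 genes in the MYB2-SRDX table. The median log2 fold change in the authors' deposited table was -1.23 for the members and 1.04 for all genes of that table. Groups did not overlap for 14 of the 19, close to the 74.8% of all genes of that table.

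HSP17.4, the small heat shock gene with 2 runs of 3 units shown above, measured 3.11, 0.940 and 1.29 FPKM in MYB2-SRDX, against 16.4, 11.7 and 6.38 FPKM in Col. HSP18.2 measured 1.62, 0.830 and 1.72 FPKM in MYB2-SRDX, against 7.46, 8.16 and 3.71 FPKM in Col. AT1G07400 measured 1.74, 0.670 and 0.560 FPKM in MYB2-SRDX, against 5.44, 2.97 and 2.07 FPKM in Col. All 3 genes were below Col in every library of the line. HSP17.6A and HSP17.6II, neighbours on chromosome 5 (3883957 to 3884838 and 3882231 to 3883111, TAIR10.1), were lower at low levels. HSP17.6A measured 0.710, 0.330 and 0.110 FPKM in MYB2-SRDX, against 1.49, 1.58 and 0.820 FPKM in Col. HSP17.6II measured 0, 0.220 and 0.110 FPKM in MYB2-SRDX, against 0.830, 1.52 and 0.110 FPKM in Col, and its groups touched at 0.110 FPKM.

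AT1G59860 measured 0.850, 0.950 and 0.210 FPKM in MYB2-SRDX, against 1.81, 1.53 and 0.840 FPKM in Col. AT1G52560 measured 0.750, 1.47 and 0.780 FPKM in MYB2-SRDX, against 3.12, 3.52 and 1.12 FPKM in Col. In both the groups overlapped, because Col replicate 3 was low. ATHSP22.0 was listed at 0.05 FPKM in each MYB2-SRDX library, against 1.30, 0.550 and 0.140 FPKM in Col.

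AT5G48570 (ROF2) measured 2.31, 7.34 and 6.84 FPKM in MYB2-SRDX, against 27.6, 19.1 and 15.9 FPKM in Col. Hop3 measured 3.20, 8.39 and 8.04 FPKM in MYB2-SRDX, against 18.15, 15.5 and 12.4 FPKM in Col. In both co-chaperone genes the MYB2-SRDX library ending in 1 was the lowest. HSP70 measured 55.5, 40.1 and 30.1 FPKM in MYB2-SRDX, against 144, 79.0 and 53.6 FPKM in Col, so its highest MYB2-SRDX library was just above its lowest Col library. HSA32, which prolongs acquired heat tolerance, measured 2.88, 2.63 and 2.5 FPKM in MYB2-SRDX, against 6.78, 6.31 and 5.03 FPKM in Col, without overlap.

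The lower members outside the chaperones were ABA1, MIPS2 and BBX18. ABA1, the zeaxanthin epoxidase of abscisic acid synthesis, measured 6.33, 6.53 and 6.20 FPKM in MYB2-SRDX, against 18.3, 19.9 and 21.9 FPKM in Col. MIPS2, a myo-inositol phosphate synthase, averaged 5.63 ± 0.745 FPKM in MYB2-SRDX, against 11.6 ± 1.29 FPKM in Col (SD, n = 3 each). BBX18, a B-box protein, averaged 1.30 ± 0.332 FPKM in MYB2-SRDX, against 2.62 ± 0.335 FPKM in Col (SD, n = 3 each). The groups did not overlap in any of these 3 genes.

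The 4 members called higher in MYB2-SRDX were ELIP2, CP12-2, RHL41 and AT4G21870. ELIP2, an early light-induced chloroplast protein, measured 16.7, 15.9 and 20.2 FPKM in MYB2-SRDX, against 7.09, 7.01 and 9.96 FPKM in Col. CP12-2, a regulator of the Calvin cycle, averaged 3.23 ± 0.686 FPKM in MYB2-SRDX, against 1.43 ± 0.261 FPKM in Col (SD, n = 3 each). Both were above Col in every library. The summed level of the 3 listed green tissue markers, of 10, was 26.0, 1.59 and 1.19 FPKM in the MYB2-SRDX libraries, against 6.02 to 9.21 FPKM in Col. This sum mixes directions. LHCB2.1 was called lower, at 1.13, 0.17 and 0.21 FPKM in MYB2-SRDX, against 5.28, 5.23 and 4.11 FPKM in Col. RBCS1B and RBCS2B were called higher, but lay above every Col library only in the library ending in 1. In the libraries ending in 2 and 3 both were below their Col means. The summed level of the 4 listed seed storage markers was 4.90, 1.68 and 1.85 FPKM in the MYB2-SRDX libraries, against 0.320 to 0.700 FPKM in Col. The part of either in these results was not tested. RHL41, a zinc finger protein of light and oxidative stress also known as ZAT12, measured 36.6, 16.0 and 16.9 FPKM in MYB2-SRDX, against 8.91, 9.30 and 13.2 FPKM in Col. AT4G21870 measured 3.29, 9.78 and 16.5 FPKM in MYB2-SRDX, against 4.07, 4.02 and 4.25 FPKM in Col, and its library ending in 1 lay below Col.

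limma on the whole MYB2-SRDX table passed 12 of the 19 members, 10 lower and 2 higher, where 62.1% of the genes of that table passed. ABA1 fell by 1.51 on the log2(FPKM + 1) scale (SE 0.122, adjusted p = 0.000882, limma), HSP17.4 fell by 2.16 (SE 0.421, adjusted p = 0.00846, limma) and AT5G48570 fell by 1.83 (SE 0.415, adjusted p = 0.0135, limma). HSP70 (adjusted p = 0.0660, limma), RHL41 (0.0501), ATHSP22.0, HSP17.6II, AT1G52560, AT1G59860 and AT4G21870 did not pass. The count depended on which libraries of Col and of the line were kept. Without Col replicate 1 or without Col replicate 2 7 members passed, and AT1G07400, BBX18, CP12-2, HSP17.6A and Hop3 were lost under each. Without Col replicate 3, 15 passed. Without the library ending in 2, 9 passed, and without that ending in 3, 8 passed. Without the library ending in 1, 15 passed, and HSP70, RHL41 and AT4G21870 were the gains. In log2 folds with 0.1 FPKM added, AT1G59860 (-0.96) and BBX18 (-0.96) were under 2-fold with all libraries, so their values below do not rest on the library alone. Without Col replicate 1, HSP70 (-0.66), AT1G59860 (-0.74), BBX18 (-0.95) and MIPS2 (-0.97) were under 2-fold. Without Col replicate 2 it was AT1G59860 (-0.89) and BBX18 (-0.88). Without the library ending in 1 it was Hop3 (-0.89) and RHL41 (0.65), and without that ending in 2 BBX18 (-0.92) and MIPS2 (-0.94). Without the library ending in 3 it was AT1G59860 (-0.58), BBX18 (-0.82), HSP70 (-0.94) and AT4G21870 (0.66).

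**Figure D3:**
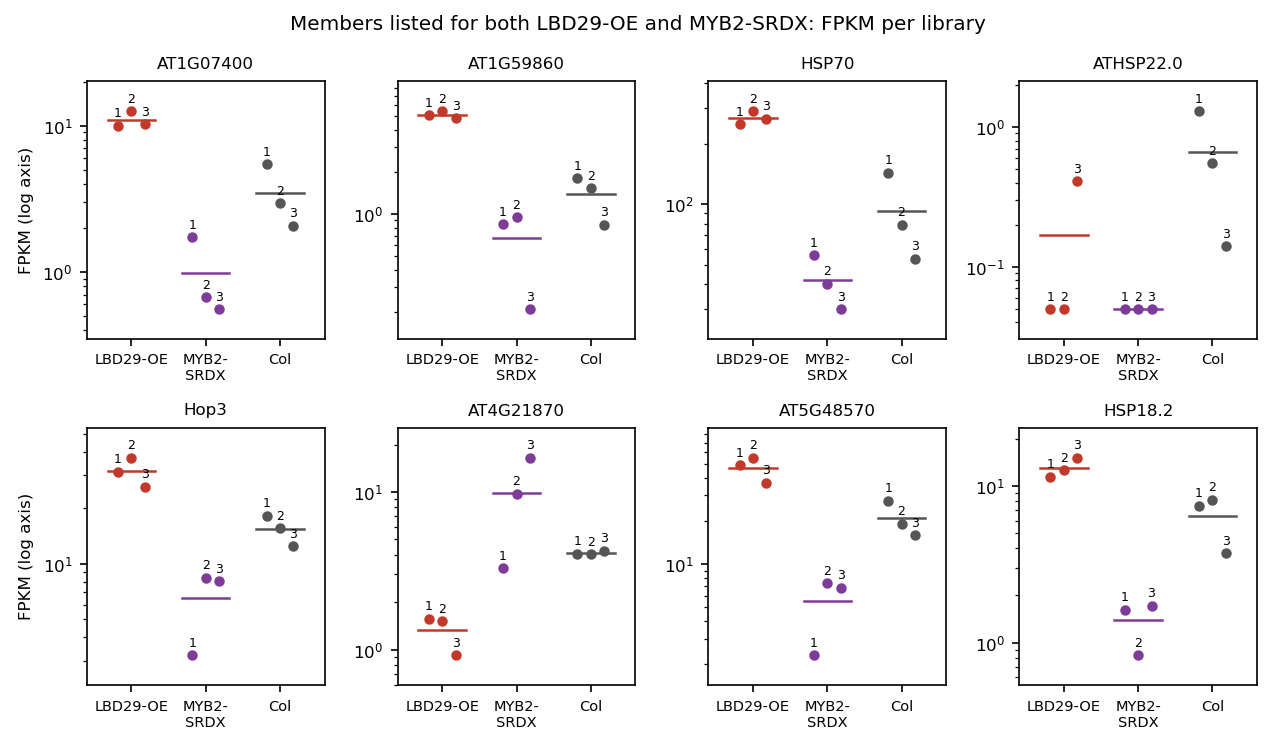
FPKM per library on log axes for the 8 members listed for both LBD29-OE and MYB2-SRDX; digits give the replicate or the digit a column ends in, and lines give group means. In AT1G07400, AT1G59860, HSP70, Hop3, AT5G48570 and HSP18.2 all LBD29-OE libraries are above all Col libraries and the MYB2-SRDX mean is below the Col mean.

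Both tables listed 8 members, and since they share the Col libraries their values are given side by side with no test. In 6 of the 8 the line LBD29-OE was higher and MYB2-SRDX lower than Col: AT1G07400, AT1G59860, HSP70, Hop3, AT5G48570 and HSP18.2. AT4G21870 ran the other way, lower in LBD29-OE and called higher in MYB2-SRDX, and ATHSP22.0 was called lower in both. HSP18.2 averaged 13.02 ± 1.90 FPKM in LBD29-OE and 1.39 ± 0.488 FPKM in MYB2-SRDX, against 6.44 ± 2.39 FPKM in Col (SD, n = 3 each). AT5G48570 averaged 46.9 ± 9.25 FPKM in LBD29-OE and 5.50 ± 2.77 FPKM in MYB2-SRDX, against 20.9 ± 6.01 FPKM in Col (SD, n = 3 each).

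The Col libraries themselves differed in these genes. Col replicate 3 was the lowest Col library for 22 of the 31 members and Col replicate 1 the highest for 18, where over all genes of the tables those shares were 33.2% and 35.9%. Among the 15 members lower in MYB2-SRDX, Col replicate 3 was the lowest for 14. The part of this spread in the folds was measured only by leaving out each library.

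The 14 members that are not in the LBD29-OE table have no library values for that line, but the MYB2 tables repeat the authors' LBD29-OE fold change for each of them. In these values from the authors' deposited tables, 10 of the genes were above 0 and 4 below, from -0.21 for MIPS2 to 0.90 for AT1G51670, with a median log2 of 0.30. All 14 shared the Col libraries with the MYB2 comparisons. None reached the 2-fold threshold. HSP17.4, with the largest fall in MYB2-SRDX among members of at least 5 FPKM, had an LBD29-OE log2 of 0.34, HSA32 0.47 and ABA1 0.60 in the authors' deposited tables.

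**Figure D4:**
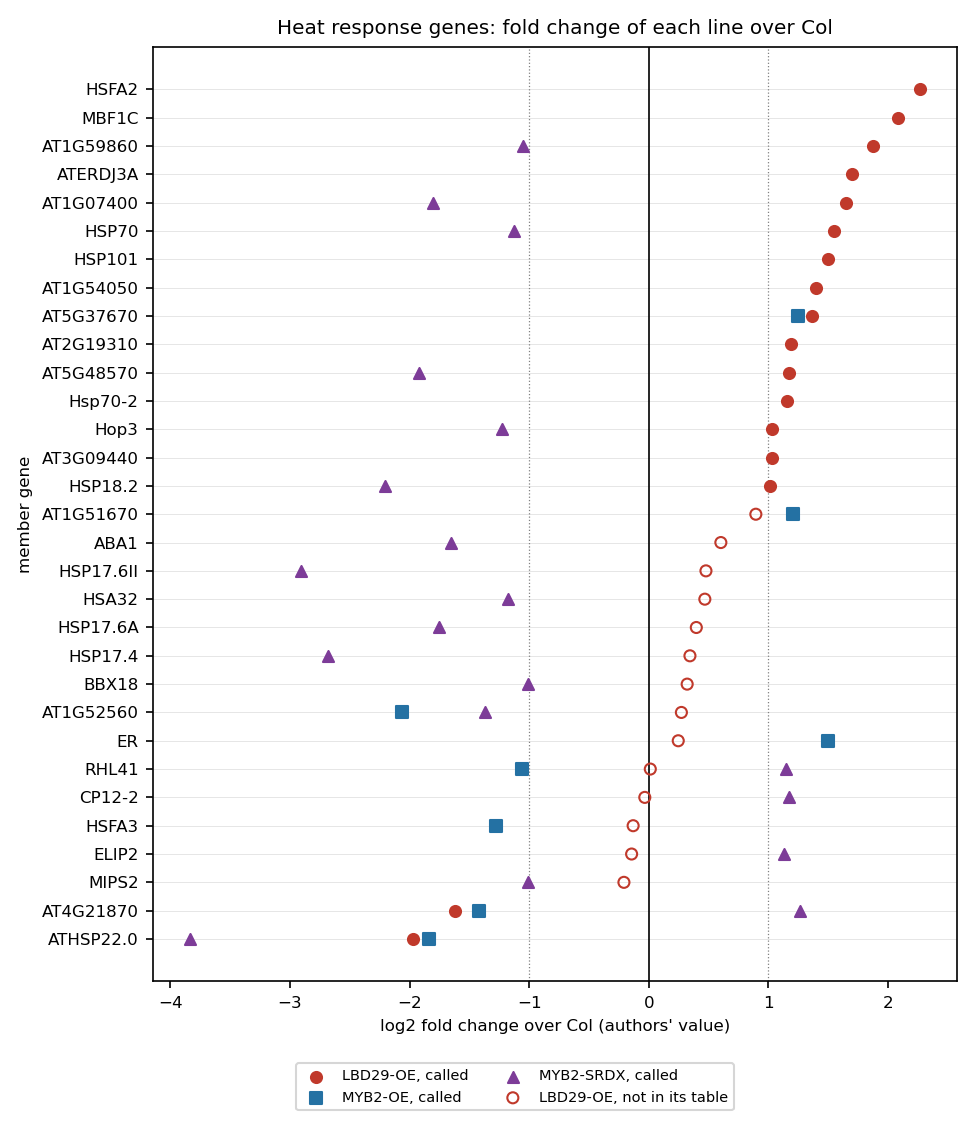
The authors' log2 fold change over Col for each of the 31 members, ordered by LBD29-OE, with filled symbols for calls in the table of a line and open circles for LBD29-OE values repeated in the MYB2 tables; dotted lines mark 2-fold. LBD29-OE has 15 filled circles right of the upper dotted line and 2 left of the lower one, while MYB2-SRDX has 15 triangles on the left and 4 on the right.

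In MYB2-OE fewer heat genes were called and they were weakly expressed. The authors called 3 members higher (9.68% of the 31, where 27.5% of the 2424 genes were called higher in this line) and 5 lower (16.1%, against 25.0%). Of the 8 listed, 62.5% were lower, against 47.6% of the 1271 genes in the MYB2-OE table, and 5 had groups that did not overlap, against 91.7% of that table. The median log2 fold change in the authors' deposited table was -1.17 for the members and 1.03 for all genes of that table. RHL41 was the 1 member above 5 FPKM, with 4.74, 5.14 and 5.21 FPKM in MYB2-OE, against 8.91, 9.30 and 13.2 FPKM in Col. It was thus lower in all MYB2-OE libraries and, as given above, higher in all MYB2-SRDX libraries.

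AT4G21870 measured 1.58, 1.72 and 1.31 FPKM in MYB2-OE, against 4.07, 4.02 and 4.25 FPKM in Col, a fall close in size to that in LBD29-OE. AT5G37670 measured 2.20, 1.57 and 1.86 FPKM in MYB2-OE, against 0.640, 0.980 and 0.750 FPKM in Col. HSFA3, a heat shock factor that extends thermotolerance and answers to drought, measured 0.380, 0.480 and 0.530 FPKM in MYB2-OE, against 1.40, 0.730 and 1.16 FPKM in Col. The groups were apart in all 3 genes. The receptor kinase gene ER (ERECTA), a regulator of organ shape, measured 1.78, 0.900 and 1.61 FPKM in MYB2-OE, against 0.610, 0.500 and 0.410 FPKM in Col. AT1G52560 measured 0.370, 1.33 and 0.140 FPKM in MYB2-OE, against 3.12, 3.52 and 1.12 FPKM in Col, with MYB2-OE replicate 2 above the lowest Col library. ATHSP22.0 measured 0.05, 0.280 and 0.230 FPKM in MYB2-OE, against 1.30, 0.550 and 0.140 FPKM in Col. AT1G51670 (also named HTT5, a heat-induced target of TAS1) averaged 0.607 ± 0.267 FPKM in MYB2-OE, against 0.273 ± 0.197 FPKM in Col (SD, n = 3 each). Groups overlapped in both, and both had means under 1 FPKM.

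limma on the whole MYB2-OE table passed 6 of the 8 members, where 94.9% of the genes of that table passed. AT4G21870 fell by 1.01 on the log2(FPKM + 1) scale (SE 0.175, adjusted p = 0.00137, limma) and RHL41 fell by 0.91 (SE 0.201, adjusted p = 0.00347, limma). ATHSP22.0 and AT1G51670 did not pass (adjusted p = 0.0965 and 0.0646, limma). AT1G52560 was lost without MYB2-OE replicate 1 or without MYB2-OE replicate 3. In log2 folds with 0.1 FPKM added, AT1G51670 (0.92) was under 2-fold with all libraries. Without MYB2-OE replicate 2, the library with LBD29 transcripts, all 8 members were past 2-fold. Without Col replicate 1, AT1G51670 (0.68), ATHSP22.0 (-0.63) and HSFA3 (-0.89) were under it, and without Col replicate 2 AT1G51670 (0.75). Without Col replicate 3, RHL41 stood at -0.84. Without MYB2-OE replicate 1, AT1G51670 (0.96) and HSFA3 (-0.98) were under 2-fold, and without MYB2-OE replicate 3 AT1G51670 (0.60).

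Of 83 genes in 6 fixed heat and chaperone lists, 18 were called higher and 3 lower in LBD29-OE, 1 higher and 4 lower in MYB2-OE, and 1 higher and 16 lower in MYB2-SRDX. The tables hold called genes alone, so the share called over all genes tested is unknown and these counts have no background of that kind. Among listed genes, 85.7% of the 21 in LBD29-OE were higher, against 41.8% of its table. In MYB2-OE 80.0% of 5 were lower, against 47.6% of its table, and in MYB2-SRDX 94.1% of 17 were lower, against 47.1% of its table. Most of these genes are members already counted above: 16 of the 21 in LBD29-OE, 5 of 5 in MYB2-OE and 13 of 17 in MYB2-SRDX. The lists were also chosen with earlier results of these data known. In all, 7 of the listed genes are not members because their annotation in the tables lacks the term. In LBD29-OE these were HSP90.1, AT5G51440, HSP23.6-MITO and AT-HSFB2B, called higher, and HSFA6B, called lower. In MYB2-SRDX they were HSP90.1, HSP23.6-MITO, AT1G53540 and APX2, all called lower. HSP90.1, the heat-inducible cytosolic HSP90, measured 91.4, 102 and 84.3 FPKM in LBD29-OE and 13.2, 14.4 and 11.1 FPKM in MYB2-SRDX, against 50.6, 31.5 and 24.0 FPKM in Col. Its LBD29-OE libraries lay above and its MYB2-SRDX libraries below every Col library. AT5G51440, an HSP20-like gene, measured 47.9, 52.3 and 49.4 FPKM in LBD29-OE, against 21.4, 13.5 and 9.72 FPKM in Col.

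By list, 9 of 16 small heat shock genes were listed for LBD29-OE (7 higher, 2 lower), 4 for MYB2-OE (1 higher, 3 lower) and 11 for MYB2-SRDX (1 higher, 10 lower). Of 17 HSP70 genes, 3 were higher in LBD29-OE and 1 lower in MYB2-SRDX. The members of the chloroplast, mitochondrial and endoplasmic reticulum HSP70 groups, the constitutive HSP90 genes and the HSP60 genes were not listed in the tables used here. Of 21 heat shock factors, 2 were higher and 1 lower in LBD29-OE, 1 lower in MYB2-OE, and 0 were listed for MYB2-SRDX.

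The members also shared terms that the rule did not use, within the same annotation that the rule read. The shares below describe that annotation and not the libraries, and the 2424 genes include the members. The term for response to hydrogen peroxide was carried by 10 of 31 members (32.3%), against 0.908% of the 2424 genes, and that for response to high light intensity by 11 (35.5%), against 0.949%. These included HSP101, HSFA2, HSP70, Hop3, HSP17.6A and HSP18.2. Protein folding was a term of 5 members (16.1%), against 0.371% of the 2424 genes. HSP101 and HSP70 were not among the 5.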

How the data were processed

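The authors deposited 3 tables, 1 per line against Col, holding FPKM of each library and of each group, per the file headers. Each also gives a log2 fold change computed by the authors, and a p-value with a Q-value from the authors' test. The genome build was TAIR10, per the submitters' processing notes. The aligner, the counting, the normalization steps and the test were not given in the labels or file headers. Only called genes were listed (every Q under 0.001 and every absolute log2 above 1, checked on the values), so unlisted genes have no library values.

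Members were found by the GO column. They and the gene lists were chosen with earlier results of these data known. Columns of MYB2-SRDX do not match sample titles and were assigned to the group, and numbered by the final digit of the column name. The authors' calls (Q under 0.05, absolute log2 of at least 1) were counted. limma 3.58.1 (R 4.3.3) was run with a mean-variance trend on log2(FPKM + 1) of each whole table, Benjamini-Hochberg over its genes, and tested on simulated data. It starts from genes already selected. A fold on the log2(FPKM + 1) scale understates changes of low genes. An exact two-sided permutation test of 3 against 3 cannot go below p = 0.1, so none was used. Alternatives were pseudocounts of 0.1 and 1, a filter at 1 FPKM, leaving out each library (folds from means with 0.1 FPKM added), and the replicate number as a block. Library values are given for members in 2 or 3 tables, for up to 6 members per direction and table with the largest fold (5 FPKM or more in the higher group), and for members in the chaperone lists. AT2G19310 and others outside this rule are given as means or, for some, by library. Promoters and gene names were read from RefSeq TAIR10.1 by locus. The depth per library is unknown, so no interval that needs it is given.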

Additional observations from a re-analysis of the deposited data

Results flagged for a closer look

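In 4 members every LBD29-OE library lay above every Col library and every MYB2-SRDX library below it, so the lines moved in opposite directions against the same Col libraries; the difference between lines was not tested. The log2 ratio of mean FPKM in LBD29-OE over MYB2-SRDX was 3.47 for AT1G07400, 3.23 for HSP18.2, 3.09 for AT5G48570 and 2.27 for Hop3. Hop3 had a log2 fold over Col of 0.89 without LBD29-OE replicate 2 and of -0.89 without the MYB2-SRDX library ending in 1. For RHL41 every MYB2-OE library lay below and every MYB2-SRDX library above Col. The log2 ratio of mean FPKM of RHL41 in MYB2-OE over MYB2-SRDX was -2.2, also not tested. Without the MYB2-SRDX library ending in 1, RHL41 had a log2 fold of 0.65 over Col in that line. These leave-out folds have 0.1 FPKM added.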

How the results depend on the processing

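The 38 folds followed here leave out those of AT1G51670, AT2G19310, BBX18, CP12-2, ER and MIPS2. Of these, all but AT2G19310 fell under 2-fold in at least 1 setting. For the 38 folds, 35 of 304 recomputations with another pseudocount or without a library took a fold under 2-fold. No direction changed, but a pseudocount cannot change it. Leaving out a library cannot change it either where the groups do not overlap. With a pseudocount of 1 the members past 2-fold numbered 13 in LBD29-OE, against 17 called. They numbered 2 in MYB2-OE, against 8 called, and 10 in MYB2-SRDX, against 19 called. This scale shrinks folds of low genes. With a pseudocount of 0.1 and all libraries they numbered 17 in LBD29-OE, 7 in MYB2-OE and 17 in MYB2-SRDX. With that pseudocount and without 1 library each, they ranged from 13 to 17 in LBD29-OE, 5 to 8 in MYB2-OE and 15 to 19 in MYB2-SRDX, so both choices enter these ranges. Members passing limma ranged from 15 to 17 in LBD29-OE, 5 to 8 in MYB2-OE and 7 to 15 in MYB2-SRDX, and those whose groups did not overlap from 16 to 17, 5 to 8 and 14 to 18. The lowest limma counts in MYB2-SRDX came without Col replicate 1 or 2, and the cause was not tested. With 0.1 added and without the 3 libraries that stand apart, 41 of 44 calls kept 2-fold. With the replicate block, 16 members passed limma in LBD29-OE and 7 in MYB2-OE. Deviations of same-numbered Col and line libraries correlated between -0.0860 and 0.0210 in LBD29-OE and between 0.0114 and 0.0194 in MYB2-OE. For libraries of different numbers the correlations ran from -0.0727 to 0.1428 in LBD29-OE and from -0.0152 to -0.0023 in MYB2-OE. Whether replicate numbers pair the libraries was not tested. MYB2-SRDX columns carry no matching numbers, so no block was fitted there. Levels under 1 FPKM limit ATHSP22.0, HSP17.6II and AT1G51670, and the unknown depth limits all low genes.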
